A study of Mus musculus with 15 samples.

Results

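Prostaglandin D2 (PGD2) synthesis genes were described in preSertoli cells of the mouse fetal testis. The set was defined by gene symbol, with no threshold on level, and holds 8 genes: Ptgs1, Ptgs2, Ptgds, Hpgds, Ptges, Ptgis, Ptgdr and Ptgr1. All 8 were found among the 27697 symbols of the RNA-seq table. The study mapped regulatory elements of preSertoli cells, the somatic cells that enclose the germ cells of the fetal testis, with 15 samples from DNase-seq, H3K27ac ChIP-seq and RNA-seq. RNA-seq has 1 group of 3 libraries, each from a pool of flow-sorted preSertoli cells from fetal testes at E15.5 (E, embryonic day). The embryos were C57BL/6J x CD-1 (F1), and the RNA labels give no allele, agent or sorting marker. The DNase-seq labels name a Sox9-ECFP transgene and call the embryos Sox9 heterozygous. Each pool mixes many embryos, so differences between animals are not seen, and with 1 RNA group no test between groups exists.

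Prostaglandins are lipid signals made in steps. A phospholipase A2 frees arachidonic acid from membranes, a cyclooxygenase (Ptgs1 or Ptgs2) turns it into prostaglandin H2, and a terminal synthase turns that into one end product. PGD2 is made by the lipocalin-type synthase Ptgds or the haematopoietic synthase Hpgds, and it is sensed by the receptors Ptgdr and Ptgdr2. In the mouse fetal testis PGD2 is known to favour the entry of SOX9, the transcription factor that drives Sertoli cell fate, into the nucleus, and Ptgds is a known target of SOX9.

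The start regions of the PGD2 synthases are shown first, with those of the other 2 genes of the set that had the most reads. The windows come from RefSeq (build GRCm38.p6), run 5′ to 3′ on the strand of the gene, and cover 250 bases before the annotated start and 50 bases from it on. Capitals mark matches to any of 9 short motifs, searched on both strands. The motifs were a first SOX form, AACAAT, a second SOX form, ACAAAG, the steroidogenic factor 1 half-site, AAGGTCA, the GATA factor site, AGATAA, the half-site of the cAMP response element, CGTCA, the E-box, CACGTG, the TATA box, TATAAA, the GC box, GGGCGG, and the CCAAT box, spelled as named. The Ptgds window lies on the minus strand at chr2:25469700-25469999, that of Hpgds on the minus strand at chr6:65144681-65144980, that of Ptges on the minus strand at chr2:30903248-30903547 and that of Ptgr1 on the minus strand at chr4:58987029-58987328.
Ptgds: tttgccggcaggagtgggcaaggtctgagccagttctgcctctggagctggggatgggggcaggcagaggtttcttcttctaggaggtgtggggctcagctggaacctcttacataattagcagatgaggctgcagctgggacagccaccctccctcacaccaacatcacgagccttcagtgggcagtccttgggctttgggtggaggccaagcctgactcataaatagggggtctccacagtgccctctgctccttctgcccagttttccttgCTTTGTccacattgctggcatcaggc
Hpgds: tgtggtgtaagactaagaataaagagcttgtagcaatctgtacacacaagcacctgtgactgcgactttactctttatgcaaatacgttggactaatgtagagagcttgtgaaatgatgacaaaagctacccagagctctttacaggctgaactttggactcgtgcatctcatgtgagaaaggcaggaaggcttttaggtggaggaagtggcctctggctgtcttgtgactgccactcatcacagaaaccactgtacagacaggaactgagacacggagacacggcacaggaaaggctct
Ptges: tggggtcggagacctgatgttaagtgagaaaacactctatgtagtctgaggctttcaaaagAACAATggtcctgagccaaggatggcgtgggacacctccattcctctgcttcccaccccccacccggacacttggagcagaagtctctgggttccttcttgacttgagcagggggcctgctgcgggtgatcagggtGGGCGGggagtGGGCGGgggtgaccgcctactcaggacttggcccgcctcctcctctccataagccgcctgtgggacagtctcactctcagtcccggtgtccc
Ptgr1: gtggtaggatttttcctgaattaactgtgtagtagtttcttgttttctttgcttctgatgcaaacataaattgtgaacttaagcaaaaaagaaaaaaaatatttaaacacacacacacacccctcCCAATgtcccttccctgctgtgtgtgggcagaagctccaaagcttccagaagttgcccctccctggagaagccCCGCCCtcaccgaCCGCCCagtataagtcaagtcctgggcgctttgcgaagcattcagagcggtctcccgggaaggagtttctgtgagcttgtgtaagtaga

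Of the 8 genes, 7 had a window in the RefSeq table, and Ptgis had none there. The Ptgds window held 1 match, a SOX site of the second form, which read ACAAAG on the opposite strand from base 25 to base 30 after the start. That form occurs in 18.7% of all 32851 windows. The Ptges window held the first SOX form (AACAAT), from base 189 to base 184 before the start, which 10.7% of all windows have. It also held a pair of GC boxes, as did Ptgr1, and 35.7% of all windows have at least 1. The Ptgr1 window further held a CCAAT box (37.4% of windows). The windows of Hpgds, Ptgs1 and Ptgdr held none of the 9 motifs. The share of all windows that hold none was not computed, and a link between matches and level was not tested. The Ptgs2 window held a GC box and, overlapping each other, a cAMP half-site (20.8% of windows) and an E-box (7.15%). The windows had a GC content of 57.7% in Ptgds, 46.7% in Hpgds, 60.0% in Ptges and 47.0% in Ptgr1, against a median of 52.7% over all windows. A match is a stretch of letters and not a measured binding site.

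**Figure D1:**
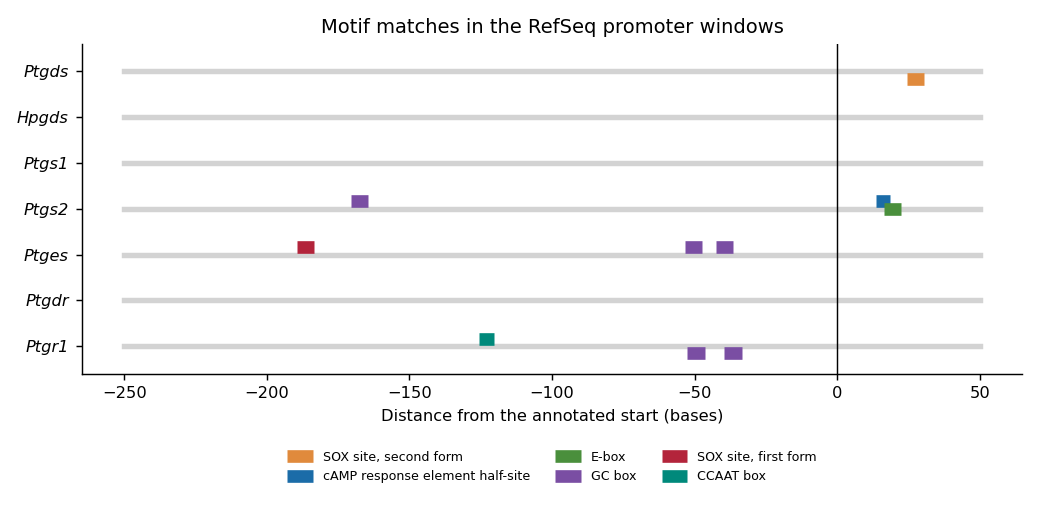
Motif matches in the promoter windows of 7 genes. The x axis is the distance from the annotated start in bases, each grey line is 1 window, and coloured blocks are matches, above the line for the strand of the gene, below it for the opposite strand and on it for the palindromic E-box; the Ptgds window has its only match after the start, and the windows of Hpgds, Ptgs1 and Ptgdr have none.

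Levels are given on 2 scales. The deposited values are square roots of scaled expected counts, and their squares, called scaled counts here, equal 1 at the 75th percentile of a library. CPM is the number of expected reads of a gene, recovered from these values, for every 1000000 expected reads of the library. The library total was 47543081, 55743301 and 51498433 expected reads in libraries 1, 2 and 3. Neither scale divides by transcript length, which was not used here, so ranks and orders between genes are those of reads and depend in part on length. A gene counted as expressed when each library gave it at least 1 CPM. By this rule 4 of the 8 genes were expressed (50.0%), close to the 47.1% of all symbols, so the count itself says nothing particular about the set. At 10 CPM in every library 3 of the 8 passed, against 34.7% of all symbols, and at 0.5 CPM 5 passed, against 50.6%. The spread inside the set was wide, since the 3 genes with the most reads were among the first 2457 of 27697 symbols and the 4 genes that were not expressed had at most 51.0 expected reads in any library.

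The cyclooxygenases, which make the common precursor, had few reads. Ptgs1, the constitutive enzyme, had 1.07, 0.628 and 0.932 CPM in libraries 1, 2 and 3, from 51.0, 35.0 and 48.0 expected reads. It passed 1 CPM in library 1 alone and averaged 0.878 ± 0.227 CPM (SD, n = 3, as for all such values), rank 13544. Ptgs2, the inducible enzyme, had 8, 4 and 3 reads, which is 0.168, 0.0718 and 0.0583 CPM. Its 15 reads over all libraries carry a 95% exact Poisson interval of 8.40 to 24.7 reads, or 0.0542 to 0.160 CPM; this and the other intervals cover counting error only. Neither cyclooxygenase met the rule for expression. In scaled counts Ptgs1 stood at 0.0229, 0.0134 and 0.0200 and Ptgs2 at 0.00359, 0.00153 and 0.00125, both far under the 75th percentile.

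The PGD2 synthases lay far apart in reads. Ptgds, a secreted lipocalin that makes PGD2 and also carries small lipophilic molecules, had scaled counts of 8.48, 7.97 and 9.44 (mean 8.63 ± 0.747), which places it above the 75th percentile in every library. It had 18888, 20792 and 22723 reads, or 397, 373 and 441 CPM, with a mean of 404 ± 34.6 CPM. Its mean ranked 344 of 27697 symbols, with ranks of 301 to 410 in the single libraries, so 98.8% of symbols had fewer reads. Library 3 was highest and library 2 lowest, and the coefficient of variation (CV) of 8.57% was far above the 0.693% that counting alone would give. The median CV over expressed symbols was 6.76%, and 64.6% of them had a lower CV than Ptgds.

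Hpgds, the glutathione transferase-like synthase known from mast cells and other blood cells, had 22.1, 21.3 and 22.6 expected reads, or 0.466, 0.383 and 0.440 CPM. Its mean of 0.429 ± 0.0424 CPM ranked 14600, and its scaled counts were 0.00994, 0.00818 and 0.00941. The libraries differed little, with a CV of 9.87% against 21.3% from counting alone at this depth. In the reads of these cells Ptgds was therefore the more abundant of the PGD2 synthases in all 3 libraries, with no overlap between the ranges.

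Because Hpgds marks mast cells and macrophages elsewhere, markers of those cells were set beside it. Of 9 mast cell markers, 3 (Tpsab1, Fcer1a and Ms4a2) had no read in any library, and the mast cell proteases Cpa3, Mcpt4 and Cma1 had 1 read each over all 3. The list reached 30.0, 30.2 and 31.7 CPM in sum through Hdc, the enzyme that makes histamine (23.6 ± 2.46 CPM), and the receptor Kit (7.01 ± 1.57 CPM), which germ cells also carry. Of 11 macrophage and blood markers 4 were expressed (36.4%, against 47.1% of all symbols). That list had sums of 35.0, 47.2 and 34.6 CPM, which came mostly from the haemoglobin gene Hbb-b1 (23.2 ± 6.07 CPM). The leukocyte marker Ptprc stood at 0.203 ± 0.0624 CPM and the macrophage marker Emr1 at 0.514 ± 0.226 CPM, both under 1 CPM. The other 3 expressed genes of that list were Mrc1, a receptor of macrophages and some endothelial cells, at 8.79 ± 0.447 CPM, the macrophage growth factor receptor Csf1r at 1.86 ± 0.392 CPM and the chemokine receptor Cx3cr1 at 1.27 ± 0.162 CPM, each above the level of Hpgds in every library. Of the genes that missed the rule, Cd68 (0.673, 1.08 and 1.22 CPM) and C1qb (0.610, 0.736 and 0.738 CPM) were also above Hpgds in every library. Emr1, C1qa and C1qc were above it in some libraries, and Ptprc and Tyrobp in none. The part of such cells in the Hpgds reads was not tested.

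The other terminal synthases of the set differed from each other too. Ptges, the microsomal synthase of prostaglandin E2, had scaled counts of 2.13, 2.18 and 2.31 and 99.6, 102 and 108 CPM, with a mean of 103 ± 4.18 CPM at rank 2457. Its CV of 4.05% was below the median of expressed symbols. Ptgis, a cytochrome P450 that makes prostacyclin, had 188, 244 and 164 reads, or 3.95, 4.38 and 3.18 CPM (mean 3.84 ± 0.605 CPM, rank 11419). It was expressed by the rule, but at a scaled count of 0.0821 ± 0.0129 it stayed far under the 75th percentile. RefSeq places a long noncoding RNA (Gm52550) and a pseudogene (Gm13400) over Ptges, a long noncoding RNA (Gm52569) over Ptgis and a pair of long noncoding RNAs (Gm34198 and Gm16976) over Ptgdr. The sources do not say whether the counting used strand, so reads of such overlapping genes cannot be told apart.

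The receptor Ptgdr, through which PGD2 raises cAMP, was at the limit of detection. It had 2.02, 1.05 and 0 expected reads, a sum of 3.07 and a pooled level of 0.0198 CPM with an interval of 0.00400 to 0.0566 CPM. The 0 in library 3 allows up to 0.0583 CPM, the level of 3 reads there. Ptgdr is also one of the genes with the overlaps named above, so these few reads cannot be tied to it with certainty. Ptgr1, a reductase that inactivates keto-prostaglandins and leukotriene B4, was at the other end with scaled counts of 2.27, 2.16 and 2.56. It had 107, 101 and 120 CPM (mean 109 ± 9.68 CPM, rank 2315, CV 8.87%).

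Ordered by reads, the genes ran Ptgds, Ptgr1, Ptges, Ptgis, Ptgs1, Hpgds, Ptgs2 and Ptgdr. Only Ptgr1 and Ptges overlapped among neighbours in this order, at 101 to 120 CPM and 99.6 to 108 CPM, and Ptgr1 was the higher of the pair in 2 of the 3 libraries. Each of the other 6 neighbouring pairs kept its order in all 3 libraries with separate ranges, although Ptgs2 and Ptgdr are separated by a handful of reads.

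**Figure D2:**
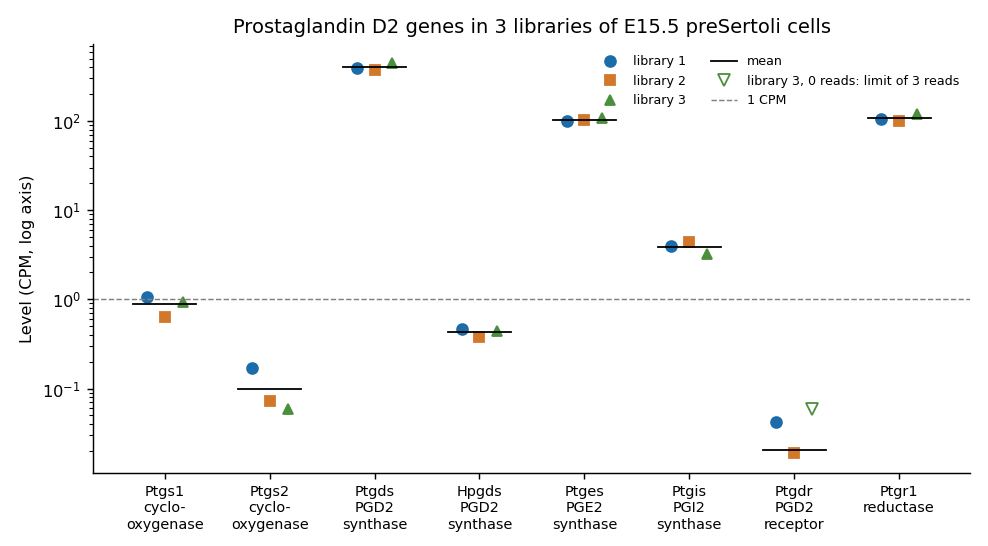
Level of each gene in each library. The y axis is CPM on a log scale, symbols are the 3 libraries, black bars the means, the dashed line 1 CPM and the open triangle the limit of 3 reads where library 3 had no Ptgdr read; Ptgds lies at 373 to 441 CPM, Ptges and Ptgr1 at 99.6 to 120 CPM, and Ptgs1, Ptgs2, Hpgds and Ptgdr around or under the line.

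**Figure D3:**
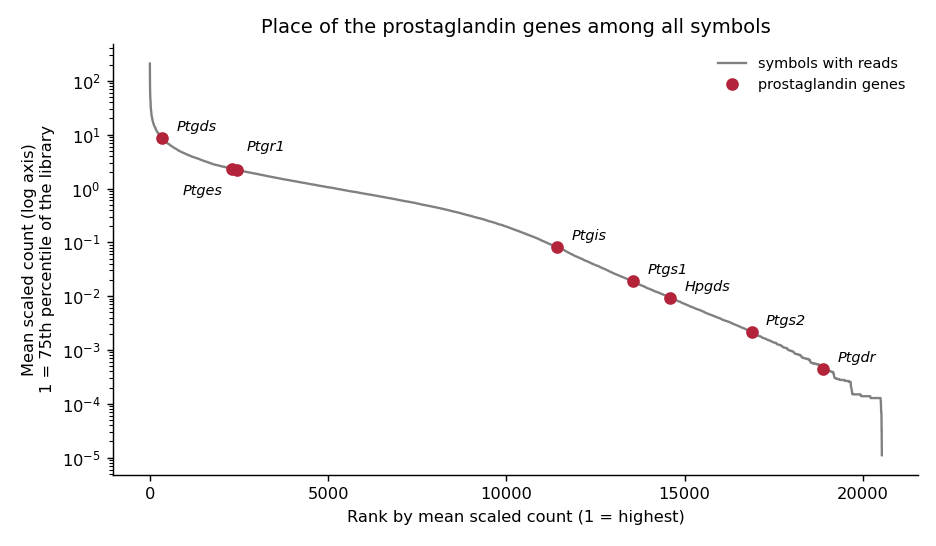
Place of the 8 genes among all symbols with reads. The x axis is the rank of the mean scaled count and the y axis that count on a log scale, where 1 is the 75th percentile of a library; Ptgds is at rank 344, Ptgr1 and Ptges at 2315 and 2457, and the other 5 genes lie at ranks 11419 to 18885.

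The symbols nearest to Ptgds in mean scaled count over the 3 libraries were Adamts16, Arf3 and Trim35 above it, at ranks 341 to 343, and Ywhaq, Nudt4 and Ndfip1 below it, at ranks 345 to 347. Their means ran from 403 to 405 CPM, and their library ranges overlapped that of Ptgds. Like Ptgds, Arf3 was highest in library 3 (447 CPM), whereas Ywhaq (438 CPM), Nudt4 (425 CPM) and Ndfip1 (427 CPM) were highest in library 1. With 3 libraries of 1 cell type, likeness here is one of level alone.

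The rest of the prostanoid pathway was described from 6 lists with 69 genes in all, of which 37 (53.6%) were expressed, against 47.1% of all symbols. The median of the 69 was 1.94 CPM, against 0.716 CPM over all symbols. Without the cAMP list, a split made after the values were seen, 23 of 53 (43.4%) were expressed, which is below the share of all symbols, with a median of 0.736 CPM. Phospholipases A2, which supply arachidonic acid, were expressed in 9 of 17 cases (52.9%). The secreted enzyme Pla2g5 had 102, 103 and 110 CPM (105 ± 4.37 CPM), the calcium-independent Pla2g6 63.7 ± 5.62 CPM, the cytosolic Pla2g4a, which prefers arachidonic acid, 62.1 ± 4.91 CPM and the secreted Pla2g12a 33.9 ± 1.98 CPM. Pla2g2e had no read in any library. Pla2g4a alone had 9571 reads over all libraries, where the cyclooxygenases Ptgs1 and Ptgs2 had 134 and 15.

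Of the 7 other terminal synthases and carbonyl reductases, 5 were expressed (71.4%, against 47.1% of all symbols). Ptges3, which makes prostaglandin E2 and is also the HSP90 co-chaperone p23, had 194, 177 and 184 CPM (185 ± 8.33 CPM). Akr1b3, an aldose reductase that can make prostaglandin F2 alpha, had 129 ± 11.6 CPM, the carbonyl reductase Cbr1 30.2 ± 1.54 CPM and Ptges2 17.4 ± 1.07 CPM. The thromboxane synthase Tbxas1 (0.190 ± 0.0165 CPM) and Akr1c18 (0.0184 ± 0.0180 CPM) were not expressed. Ptges3 and Akr1b3, the pair with the most reads, have known roles beyond prostaglandins.

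Among the 9 genes of the receptor list, 3 were expressed (33.3%, against 47.1% of all symbols). The second PGD2 receptor, listed as Gpr44 (now Ptgdr2), had 0.0440, 0.0185 and 0 CPM, so neither PGD2 receptor exceeded a few reads in any library. Ptger1, a receptor for prostaglandin E2, had 29.5, 37.1 and 24.8 CPM (30.5 ± 6.22 CPM) and the thromboxane receptor Tbxa2r 7.45, 10.8 and 3.90 CPM (7.39 ± 3.46 CPM). The third, Ptgfrn (72.4 ± 3.71 CPM), is a regulator of the prostaglandin F2 alpha receptor and binds no prostaglandin itself. The prostaglandin E2 receptor Ptger4 had 1.64, 2.13 and 0.835 CPM and missed the rule in library 3.

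Transport and breakdown genes were expressed in 6 of 7 cases (85.7%, against 47.1% of all symbols). The reductases Zadh2 (57.9 ± 1.23 CPM) and Ptgr2 (50.3 ± 3.12 CPM) had fewer reads than Ptgr1 (109 ± 9.68 CPM) in every library. Hpgd, the dehydrogenase that starts prostaglandin breakdown, had 3.09 ± 0.240 CPM. The efflux pump Abcc4 had 1.72 ± 0.176 CPM, and the uptake carrier Slco2a1 was not expressed at 0.527 ± 0.0560 CPM. The leukotriene branch, which competes for arachidonic acid, was expressed in 1 of 14 cases (7.14%), the hydrolase Lta4h at 44.7 ± 0.916 CPM. The lipoxygenase Alox5 stood at 0.0957 ± 0.0569 CPM, and no other lipoxygenase of the list was expressed either.

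Of 16 genes of cAMP signalling, the pathway downstream of Ptgdr, 14 were expressed (87.5%, against 47.1% of all symbols). Gnas, the stimulatory G protein, had 749, 805 and 859 CPM (804 ± 54.8 CPM), the kinase subunits Prkar1a 383 ± 12.0 CPM, Prkar2b 265 ± 37.0 CPM and Prkaca 143 ± 8.93 CPM, and the cyclase Adcy6 63.7 ± 3.19 CPM. Many receptors use these genes. Of 10 testis-determining factors 9 were expressed (90.0%), and Sry, the Y-linked switch of testis fate, was not. Sox9 had 280, 284 and 218 CPM (260 ± 37.1 CPM) and Sox8, a related factor, 233, 241 and 215 CPM. Sox9 was lowest in library 3, where Ptgds was highest, and 3 libraries are too few to relate the genes.

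**Figure D4:**
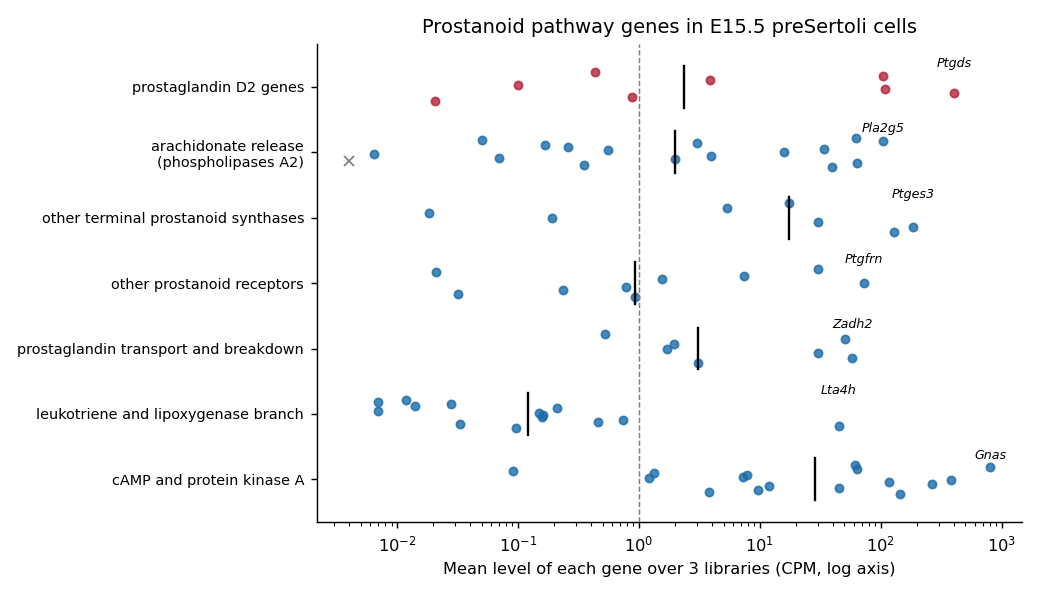
Mean level of each gene of the prostanoid lists. The x axis is the mean CPM of 3 libraries on a log scale, each point is 1 gene, black bars are list medians, the dashed line is 1 CPM, the cross is Pla2g2e, which had no read, and the gene with the highest mean is named above the points of each list; Cbr1 is in both the synthase and the breakdown list. The leukotriene genes lie under 1 CPM except Lta4h, and the cAMP genes above it except Adcy8 at 0.0904 CPM.

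The labelled cell type was checked against markers. Of all symbols, 47.1% were expressed by the same rule. All 8 Sertoli markers were expressed, among them Clu (3187 ± 260.1 CPM), Amh (2058 ± 682 CPM) and Dhh (415 ± 38.9 CPM). All 6 fetal Leydig markers were expressed too, with sums of 1703, 2023 and 1234 CPM led by Cyp17a1 (679 ± 145 CPM). Peritubular and interstitial markers (8 of 9 expressed) summed to 104, 117 and 73.9 CPM, germ cell markers (6 of 8) to 61.1, 44.1 and 50.8 CPM, endothelial markers (4 of 8) to 34.5, 34.5 and 32.2 CPM, coelomic and mesonephric epithelium markers (2 of 6) to 4.67, 4.82 and 5.61 CPM and granulosa markers (3 of 6) to 7.70, 9.41 and 7.06 CPM. In these bulk libraries, fewer cells of a type and less RNA per cell cannot be told apart.

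The libraries differed in marker levels of several cell types, and the prostanoid genes did not all share one order of the libraries. Library 2 had 1.64 times the Leydig sum and 1.59 times the peritubular and interstitial sum of library 3. The ratio was 1.37 for the macrophage and blood sum, 1.33 for the granulosa sum, 1.14 for the Sertoli sum and 2.02 for the Sertoli marker Amh. Tbxa2r was 2.77 times higher in library 2 than in library 3, Ptger1 1.50 times (just under 1.5 before rounding) and Ptgis 1.37 times, whereas Ptgds, at 0.845, and Ptgr1, at 0.843, were lower in library 2. Of 13044 expressed symbols, 3.81% were at least 1.5 times higher in library 2, and the median ratio was 0.997. Each of the 6 Leydig markers was highest in library 2 and lowest in library 3, as was Ptgis, 1 of the 4 expressed genes of the set. That order was shared by 10 of the 37 expressed pathway genes (27.0%) and 19.0% of all expressed symbols. Those 10 were Tbxa2r, Ptger1, Ptgfrn, Cbr1, Cbr3, Pla2g2f, Fam213b, Adcy3, Adcy7 and Adcy9. Ptgds and Ptgr1 were highest in library 3 and lowest in library 2, as were 16.3% of all expressed symbols. Library 2 was also highest and library 3 lowest for 6 of 8 expressed peritubular and interstitial markers, 4 of 8 Sertoli markers and 2 of 4 expressed macrophage and blood markers. Another 2 of the 8 Sertoli markers, Aard and Cldn11, had the order of Ptgds and Ptgr1. These orders were looked at after the values had been seen, and the part of any of these cell types in them was not tested.

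**Figure D5:**
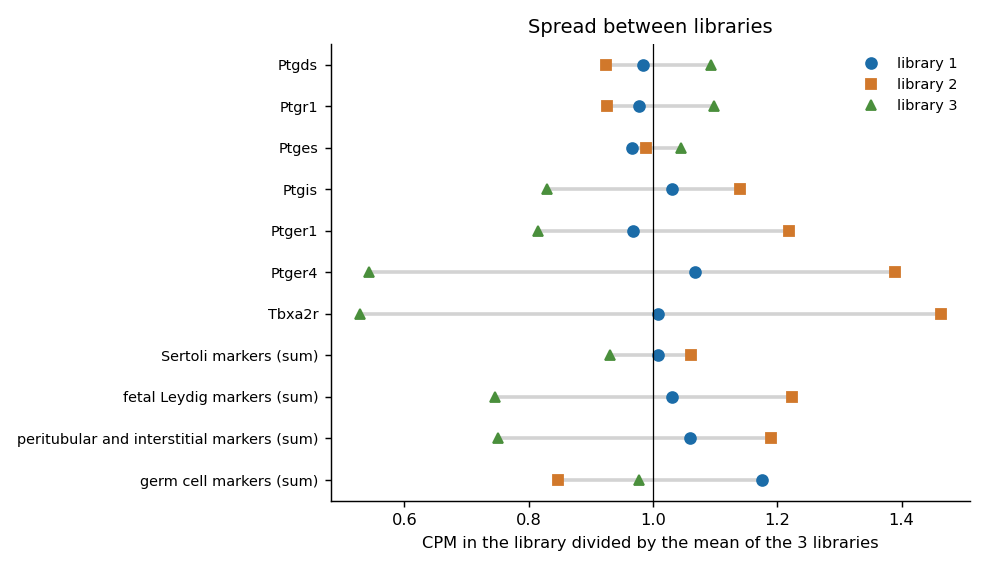
Spread of prostanoid genes and marker sums between libraries. The x axis is the CPM of a library divided by the mean of the 3 libraries, symbols are libraries and grey lines join lowest and highest. Ptgds, Ptgr1 and Ptges are highest in library 3, while Ptgis, Ptger1, Ptger4, Tbxa2r and the Leydig, peritubular and Sertoli sums are lowest there. The Sertoli sum includes Amh, at 2673 CPM in library 2 and 1325 CPM in library 3. The germ cell sum is lowest in library 2.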

How the data were processed

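RNA-seq of 3 pools of E15.5 preSertoli cells was used, with poly-A libraries and 50 bp single-end reads per the labels' protocols. Per the submitters' processing notes, CASAVA 1.8.2, Bowtie 0.12.7 and RSEM 1.2.0 were used with build mm9, and the gene annotation is not given in the sources used here. The deposited values are square roots of scaled expected counts, per the file headers and tools. The values show that the scaling set the 75th percentile of every library, taken over rows with a read somewhere, to 1. Values were squared, expected reads were recovered from their steps of 0.01 read (100% whole within 0.05 of a step) and CPM was computed over the kept rows with Python 3.11.15 and pandas 2.3.3. Recovery was checked on data simulated from the recovered reads with steps of 0.01 read, so that check takes the steps as given. Of 28427 rows the one with the highest mean was kept per symbol, leaving 27697. The columns carry only a number, so libraries are named by it. CPM replaced length-scaled units, as no transcript lengths were used. DNase-seq and H3K27ac positions (mm9) were not used, as gene positions in that build were not used here. Named genes were all 8 genes of the set, genes of the lists (the highest of each at least) and the 3 symbols on either side of Ptgds in level; genes that were not expressed, and the chosen markers, were named after their values were seen. The gene set and the lists were chosen with earlier results of these data known. No hypothesis test was made.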

Additional observations from a re-analysis of the deposited data

How the results depend on the processing

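Of 109 values recomputed under other settings, 106 stayed within the spread between libraries or, for counts, within 1.5 times. For mean CPM with 1 library left out this was certain beforehand, since such a mean cannot move by as much as the SD of 3 libraries. Those values therefore say nothing about stability by this rule. Mean CPM of Ptgds was 404 under the deposited upper-quartile scaling, 404 with TMM factors and 403 with rows of a symbol summed, and leaving out each library in turn gave 385 to 419. The number of genes of the set called expressed was 4 with a mean of at least 1 CPM and when any 1 library was left out, 5 at 0.5 CPM and 3 at 10 CPM. Leaving out a library can only keep or raise this number. The number of expressed pathway genes was 24 at 10 CPM, against 37 at 1 CPM, since a higher threshold can only keep fewer genes, and 23 without the cAMP list, an alternative chosen after seeing the data that counts fewer genes. Without replicate 1 the rank of Ptgdr was 19745, against 18885, and its mean 0.00942 CPM, against 0.0204 CPM. The mean of Ptgs2 was then 0.0650 CPM, against 0.0994 CPM. Both means moved by over 1.5 times, which the rule on the SD could not flag. Depth limits Ptgdr, Ptgs2 and Hpgds, where 1 read is worth 0.0179 to 0.0210 CPM. Ranks per kilobase and peaks or domains near the genes were not run, since neither transcript lengths nor mm9 gene positions were used. No paired analysis was possible because the RNA-seq data hold a single group and its columns are tied to no other samples.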

Other observations

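Genes next to the set on the chromosome, by RefSeq order, had levels of their own. Pla2g4a, which frees arachidonic acid, is the protein-coding neighbour of Ptgs2 on one side and had 67.3, 57.6 and 61.4 CPM, where Ptgs2 had 0.168, 0.0718 and 0.0583 CPM, while Pdc on the other side had no read. Ptger2, a prostaglandin E2 receptor, is the neighbour of Ptgdr on one side and had 1.22, 0.789 and 0.757 CPM, and Gm8267 on the other side had a mean of 0.140 ± 0.0181 CPM (SD, n = 3). The lipocalin gene Lcn12, on one side of Ptgds, had 0, 0.0179 and 0 CPM, and C8g, a further lipocalin and the next gene on, 0.883, 0.861 and 1.50 CPM; on the other side Paxx was not matched to the table, and Clic3 beyond it had 0.652, 0.664 and 0.874 CPM.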
